A study of Mus musculus with 2 samples.

Results

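The genes of the cytosolic ribosomal proteins were described in single cells of EMT6 tumors. Members were the gene symbols made of Rpl or Rps followed by a digit, with Rplp0, Rplp1, Rplp2 and Rpsa, leaving out symbols with -ps and the Rps6k kinases, and with at least 1000 unique molecular identifiers (UMIs) over both libraries. Of 55450 genes, 93 symbols matched and 86 were members: 46 proteins of the large subunit, 31 of the small subunit, and 9 paralogs, pseudogene symbols or partners of these. EMT6 is a mouse mammary tumor line, labelled as triple-negative breast cancer, and 200000 cells were injected subcutaneously per BALB/c mouse. Both groups were given the PRMT5 inhibitor LLY-283, at 50 mg/kg in cycles of 3 days on and 4 days off, and the PARP inhibitor Olaparib at 50 mg/kg. The Combo group also received 200 µg of an anti-PD-1 antibody every 3 days. Each group was 1 droplet library made from the pooled tumors of 3 mice, with erythrocytes lysed and dead cells removed before loading, and an untreated library was not analysed here. Treatment, mouse pool and library therefore cannot be told apart, no p-value is given, and every interval covers counting error only.

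The cytosolic ribosome is built from ribosomal RNA and about as many different proteins as there are canonical members here, in nearly equal numbers of copies. Their mRNAs are among the most abundant of any cell, and many start with a run of pyrimidines, the 5′ terminal oligopyrimidine motif, through which mTOR and the RNA-binding protein LARP1 control their translation. Growing tumor cells and activated lymphocytes are known for high ribosome production, and mature neutrophils for little. Rps10 is a known substrate of PRMT5, the enzyme that LLY-283 inhibits.

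The sequences around the transcription start show what many of these genes share. RefSeq promoter sequences (GRCm38.p6) matched 64 of the 86 members. The letters CTTTCC on the gene's strand, a short pyrimidine run, lay within 30 bases around a start in 15.6% of the matched members and in 1.67% of all 27025 genes with a promoter sequence. The letters CGGAAG, known as the core of the binding site of ETS factors such as GABPA, lay on either strand within 300 bases of promoter in 67.2% of the members and 18.8% of all genes. TATAAA was found on either strand in 10.9% of the members and 15.7% of all genes. Below are 30 bases around the start of 5 members with CTTTCC, in capitals, and of 2 paralogs named in the results below, Rpl22l1 and Rpl36al. These 2 lack CTTTCC there, as most matched members do.
Rps27 (chr3:90213634-90213663, minus strand): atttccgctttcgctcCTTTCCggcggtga
Rps27rt (chr9:114982725-114982754, minus strand): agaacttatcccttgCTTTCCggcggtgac
Rps10 (chr17:27635230-27635259, minus strand): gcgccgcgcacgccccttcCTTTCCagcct
Rpl15 (chr14:18270972-18271001, minus strand): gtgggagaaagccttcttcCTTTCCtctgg
Rpl35a (chr16:33056467-33056496, plus strand): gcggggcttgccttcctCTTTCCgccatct
Rpl22l1 (chr3:28805493-28805522, plus strand): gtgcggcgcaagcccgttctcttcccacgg
Rpl36al (chr12:69184053-69184082, minus strand): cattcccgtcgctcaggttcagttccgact
Rps27 and Rps27rt, which the annotation places on different chromosomes, have the same bases after CTTTCC in the stretch shown.

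The libraries differed in depth. The median cell had 7376 UMIs in the Olaparib + LLY-283 library (16115 cells, 147214934 UMIs in all) and 3614 in the Combo library (7542 cells, 162522700 UMIs). Cells with under 20% mitochondrial UMIs were kept, 16029 and 5956. Classes were set from marker UMIs and are called tumor-like, neutrophil-like and so on. Tumor-like cells, with at least 5 UMIs of the keratin list, numbered 8038 and 2678, with medians of 11624 and 49560 UMIs. All 5 keratin list genes were found in them, and the 8 genes of the fibroblast list too, at 23.9 and 24.98 UMIs per 10000. There were 39 barcodes present in both libraries. Cells with lists mixed, near a limit or with too few marker UMIs were in no class, 5973 and 1290 cells. Most of these in the Olaparib + LLY-283 library were 4209 cells with 1 to 4 keratin UMIs, in which ribosomal protein genes took 22.1% of UMIs, and the 440 such cells of the Combo library had 19.4%.

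Ribosomal protein genes took 33061002 UMIs, or 22.5%, in the Olaparib + LLY-283 library and 34357062, or 21.1%, in the Combo library. The most abundant member was Rpl41, a very short protein of the large subunit, with 2644368 UMIs in all, at a level of 8837 CPM (UMIs per 1000000) without and 8301 CPM with the anti-PD-1 antibody. Among the most abundant were also Rpl32 with 2230032, Rpl37 with 2098051 and Rps12 with 1857098 UMIs. The 3′ chemistry counts the end of a transcript once whatever its length, so these levels were not divided by length. Levels of canonical members spanned a wide range although their proteins are present in nearly equal copies, down to Rpl29 with 22835 and Rpl13a with 69770 UMIs. The last 300 bases of a median canonical member shared 47.3% of their 60-base words with transcripts of other genes, among them processed copies. Among the 77 canonical members, this share and the UMI total had a Spearman rho of -0.05, given as a description. Rps3a2 with 1462 and Rpl6l with 2659 UMIs lay just inside the limit for members, and Rps3a3 with 445 and Rps4l with 336 just outside.

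The share of ribosomal protein UMIs followed the class of the cell. Over the 10 classes with at least 9 cells in each library, it was highest in T-like and tumor-like cells and lowest in neutrophil-like cells, in both libraries. NK-like cells, left out of this order as 1 and 4 cells, had 25.02% and 25.29%. T-like cells had 23.9% (95% interval 23.6 to 24.4, 27 cells) and 21.9% (21.7 to 22.2, 30 cells) in the Olaparib + LLY-283 and the Combo library, in that order here and below. Tumor-like cells had 23.0% and 22.1%. Next in order came osteoclast-like cells with 19.2% and 20.4% (55 and 24 cells) and dendritic-like cells with 18.9% and 17.4% (100 and 51 cells). Macrophage-like cells had 17.2% and 15.1% (874 and 488 cells), close to fibroblast-like cells with 15.98% and 14.5% (245 and 72 cells). Neutrophil-like cells stood apart with 11.5% (11.4 to 11.6, 614 cells) and 6.35% (6.32 to 6.38, 1208 cells). Single cells of a class were spread widely: from the 5th to the 95th percentile, tumor-like cells ran from 16.9% to 30.0% and from 15.5% to 29.8%, and neutrophil-like cells from 7.03% to 17.9% and from 4.28% to 11.7%. Large subunit UMIs exceeded small subunit UMIs by a factor of 1.07 to 1.24 in all 10 classes. These are sums over 46 large and 31 small subunit genes, so the factor does not compare levels per gene.

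**Figure D1:**
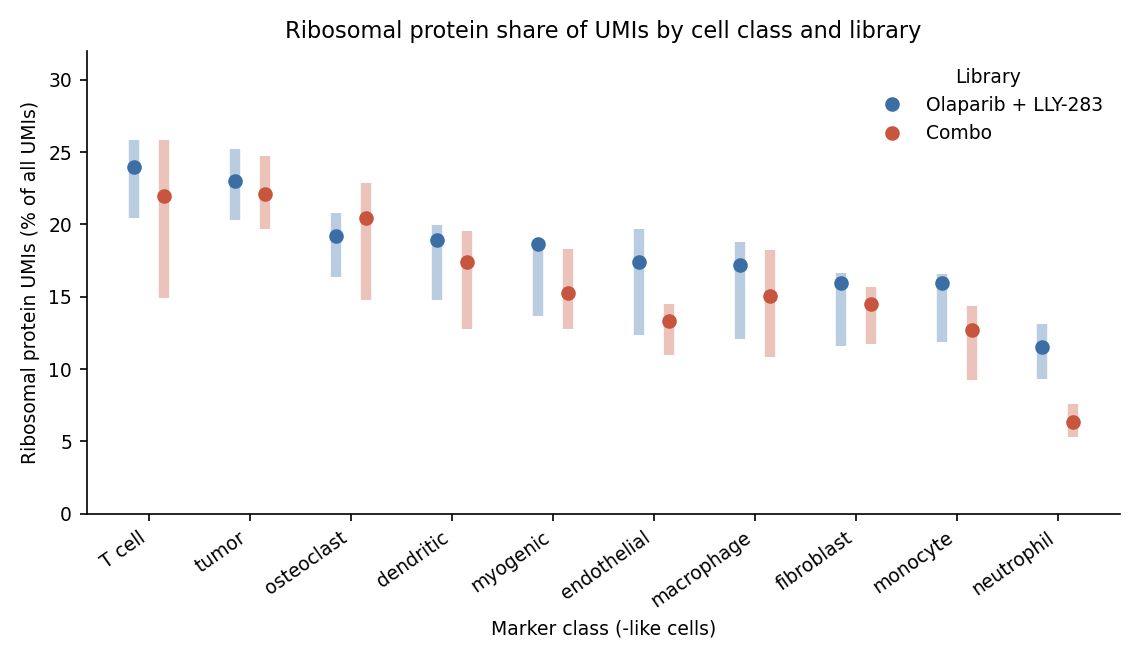
Share of ribosomal protein UMIs (percent of all UMIs, vertical axis) in 10 marker classes (horizontal axis) and both libraries. Points are sums over the cells of a class and bars run from the 25th to the 75th percentile of single cells. T-like and tumor-like cells lie at 21.9% to 23.9%, neutrophil-like cells at 11.5% and 6.35%.

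The share was lower in the Combo library in 9 of 10 classes and higher in 1, osteoclast-like cells, by 1.24 percentage points (1.04 to 1.44). The difference was small in tumor-like cells, -0.937 points (-0.948 to -0.927), and large in neutrophil-like cells, -5.20 points (-5.30 to -5.10). The next largest was in endothelial-like cells, -4.08 points (31 and 9 cells), before myogenic-like cells with -3.37 (40 and 54 cells). In monocyte-like cells the difference was -3.20 points (30 and 47 cells) and in T-like cells -2.003. It was -2.14 points in macrophage-like cells, in dendritic-like cells -1.51 and in fibroblast-like cells -1.51. In fibroblast-like cells the median over single cells turned the direction, at 0.457 points. In myogenic-like cells the medians over single cells hardly differed, at 15.76% and 15.72%. The -3.37 points there hold for summed UMIs only. With 1 library per group, no spread between samples stands behind these differences.

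The difference in neutrophil-like cells depended on their depth. Neutrophil-like cells with at least 500 and under 1000 UMIs had 11.5% (554 cells) and 11.8% (82 cells), a difference of 0.331 points (0.0576 to 0.609) against the direction of all neutrophil-like cells. In the Combo library the share fell with the depth of the cell, from 13.5% between 500 and 750 UMIs and 10.7% from 750 to 8.22% from 1000, 6.72% from 1500 and 5.62% from 2000 to under 3000 UMIs, and was 6.01% in 80 cells of 3000 UMIs or more. In the Olaparib + LLY-283 library the first 3 of these steps had 11.7%, 11.1% and 9.71%, and the next 2 steps held under 10 cells each. The Combo library was thus higher in the first step and lower in the other two, with intervals that overlapped from 750 UMIs and were 9.46 to 9.96 and 8.10 to 8.34 from 1000 to under 1500 UMIs. Between 1000 and 3000 UMIs as a whole the share was 10.85% (56 cells) and 6.24% (1046 cells), a difference of -4.61 points (-4.83 to -4.39). These cells were not of one depth, with medians of 1244 and 1979 UMIs. Between 1500 and 3000 UMIs, Olaparib + LLY-283 had only 12 cells, with 13.1% (12.7 to 13.5) against 6.02% in 887 Combo cells, and as medians over cells 10.4% and 6.002%. The fibroblast list in those 12 cells was at 45.97 UMIs per 10000 against 8.10, and the neutrophil list at 412 against 1119. Most neutrophil-like cells of the Combo library, 1046 of 1208, lay between 1000 and 3000 UMIs and most of the other library, 554 of 614, below 1000.

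Genes of other classes and the neutrophil markers moved with depth as well. The neutrophil list, led by S100a8 and S100a9, rose in the Combo library from 634 UMIs per 10000 in the first step to 1264 between 2000 and 3000 UMIs. The keratin list, of which 4 of 5 genes were seen in the neutrophil-like cells of each library (Epcam was at 0 in the Olaparib + LLY-283 library and Krt19 in the Combo library), fell from 4.68 to 2.08 per 10000 over the same steps. Cells of like depth differed between the libraries too. In the first step the neutrophil list was at 919 and 634 per 10000 and the macrophage list at 2.34 and 5.46, and from 750 to under 1000 UMIs they were at 1022 and 689, and at 2.05 and 4.48. The fibroblast list, 8 of 8 genes seen, was at 7.71 per 10000 in the last of these steps. Over all neutrophil-like cells the keratin list stood at 4.56 and 2.27 and the fibroblast list at 14.6 and 8.82 per 10000. The part of RNA from other cells in the ribosomal protein share was not tested.

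**Figure D2:**
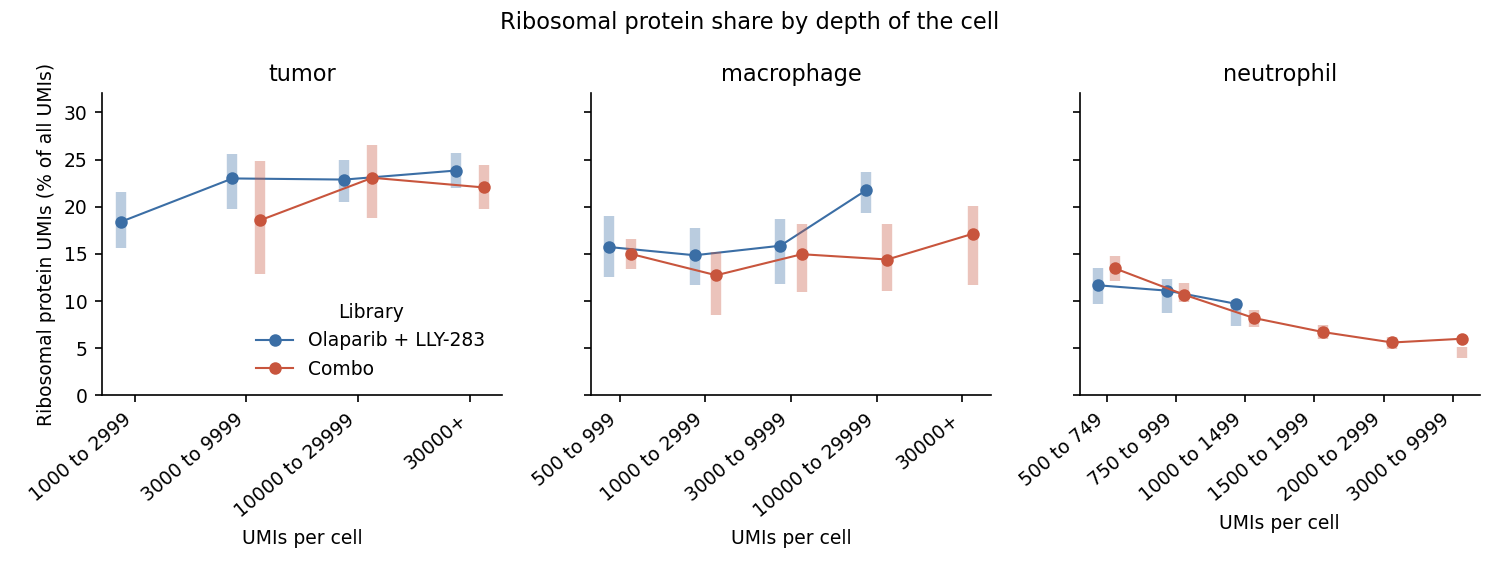
Share of ribosomal protein UMIs (percent of all UMIs) against the UMIs of the cell, in steps, for tumor-like, macrophage-like and neutrophil-like cells of both libraries. Points are sums, bars the 25th to 75th percentile of single cells, and steps with under 10 cells are left out. In neutrophil-like cells the Combo library falls from 13.5% to 5.62% below 3000 UMIs, and the 3 steps that both libraries fill hold 11.7% and 13.5%, 11.1% and 10.7%, and 9.71% and 8.22%.

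Tumor-like cells showed no such slope at the depths that hold most of them. Between 10000 and 30000 UMIs the share was 22.9% (4491 cells) and 23.1% (356 cells), a difference of 0.195 points, and at 30000 UMIs or more 23.8% (368 cells) and 22.04% (2267 cells). Between 3000 and 10000 UMIs it was 23.0% (3117 cells) against 18.6% in only 51 Combo cells. Macrophage-like cells had 15.9% and 15.0% between 3000 and 10000 UMIs, but 21.7% (49 cells) and 14.4% (274 cells) between 10000 and 30000 UMIs. Those 49 deep macrophage-like cells also carried the keratin list at 6.04 and the fibroblast list at 17.5 per 10000, against 0.988 and 3.46 in the Combo library. Leaving out the cells with the highest doublet scores brought the difference of all macrophage-like cells from -2.14 to -0.605 points. Fibroblast-like cells between 10000 and 30000 UMIs likewise had 20.4% (18 cells) and 13.4% (33 cells).

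Gene by gene, no member was past 1.5-fold in tumor-like cells. Of their 86 ratios 54 were below 0, as were 68 of 84 in macrophage-like, 59 of 80 in dendritic-like, 63 of 82 in fibroblast-like and 80 of 80 in neutrophil-like cells. The share of all genes below 0 is not given, so these counts describe the members only. They restate in part the lower summed share given above. In dendritic-like cells the median ratio of all genes was itself below 0, at -0.03. Ratios are log2 of CPM, Combo over Olaparib + LLY-283, with 0.5 UMIs added to each count, for genes with at least 100 UMIs in a class, and a gene was called when past 1.5-fold. In tumor-like cells, 0 of 86 members were called higher and 0 lower, where 4.59% of all 13718 genes were called higher and 2.25% lower. Their median was -0.04 against 0.06 for all genes, and they ran from -0.33 to 0.36. The lowest was Rps29, a zinc-binding protein of the small subunit, with 6274 CPM (6259 to 6289) and 4990 CPM (4978 to 5002), a ratio of -0.33. Below it in size of change came Rpl37rt at -0.29, Rps3a2 at -0.28, Rps14 at -0.22 and Rpl8 at -0.22. The highest was Rpl27, a large subunit protein, with 682 and 877 CPM, a ratio of 0.36, before Rpl36al at 0.34, Rpl23a at 0.31, Rpl15 at 0.28 and Rpl27a at 0.28. In tumor-like cells between 3000 and 10000 UMIs, of which the Combo library had 51, Rpl27 was at -0.05, Rpl27a at -0.04 and Rpl23a at -0.29, against the direction of all tumor-like cells, while Rpl36al was at 0.46 and Rpl15 at 0.14. Counting error is far below these ratios for the abundant genes, but the spread between libraries of 1 group is not known.

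Macrophage-like cells also had no called member, with 0 of 84 higher and 0 lower, against 8.60% and 6.54% of all genes called. Their median was -0.18 against 0.06 for all genes, with Rpl6l and Rps3a2 under the minimum of 100 UMIs. Rpl22l1, a paralog of Rpl22 that can take its place in the ribosome, had the lowest ratio, -0.55, from 1001 CPM (965 to 1037) to 685 CPM (666 to 705). This ratio was -0.23 without the cells with the highest doublet scores, -0.35 per ribosomal protein UMI, -0.86 between 3000 and 10000 UMIs and 0.02 between 1000 and 3000 UMIs. The keratin list, all 5 genes seen in both libraries, was at 3.98 and 1.76 UMIs per 10000 in macrophage-like cells and the fibroblast list, 8 of 8 seen, at 11.6 and 6.97, and their part in it was not tested. Rps27rt at -0.47, Rps14 at -0.43 and Rpl8 at -0.41 followed. At the high end stood Rpl36al at 0.23, from 233 to 274 CPM, then Rpl7l1 at 0.20, Rpl35a at 0.16, Rpl15 at 0.14 and Rpl27 at 0.13. Dendritic-like cells, with 0 of 80 called in either direction against 11.9% and 10.1% of all genes, had a median of -0.11. The median of all genes was also below 0 there, at -0.03. Fibroblast-like cells, with 0 of 82 against 4.77% and 2.77%, also had a median of -0.11, against 0.03 for all genes.

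Neutrophil-like cells differed from the other classes in number of calls. Of 80 members with enough UMIs, 72 were called lower and 0 higher, where 19.7% of all 3215 genes were called lower and 20.7% higher. The members' median was -0.85 and that of all genes 0.03. The lowest was Rpl26, a large subunit protein that also binds p53 mRNA, with 151 CPM (118 to 191) and 58.6 CPM (49.4 to 69.1), a ratio of -1.37. Rps4x, an X-linked small subunit protein, was at -1.14, Rpl6 at -1.12 and Rpl3 at -1.08. Rps9, a small subunit protein, stayed closest to its level, with 1736 CPM (1618 to 1861) and 1495 CPM (1447 to 1545), a ratio of -0.22. Rpl4 at -0.39, Rpl27 at -0.45, Rpl24 at -0.48 and Rpl36al at -0.50 came next. The count of members called lower depended on depth. Among neutrophil-like cells under 1000 UMIs, 0 of 75 members were called lower and 2 higher, Rpl4 and Rps10, where 10.7% and 10.2% of 571 genes were called, and Rps4x had a ratio of 0.03. Between 1000 and 3000 UMIs, with 56 cells in the Olaparib + LLY-283 library, 59 of 79 were called lower and 1 higher, Rpl24 on 3 UMIs in that library, where 25.3% and 30.5% of 2528 genes were called, and Rps4x was at -1.04. Scaled to the UMIs of the members alone, 0 were lower and 1, Rps9, was higher, at 0.65, where 0.187% and 65.7% of all genes were called. On that scale Rps9 was at 0.01 in cells under 1000 UMIs and at 0.93 between 1000 and 3000 UMIs.

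**Figure D3:**
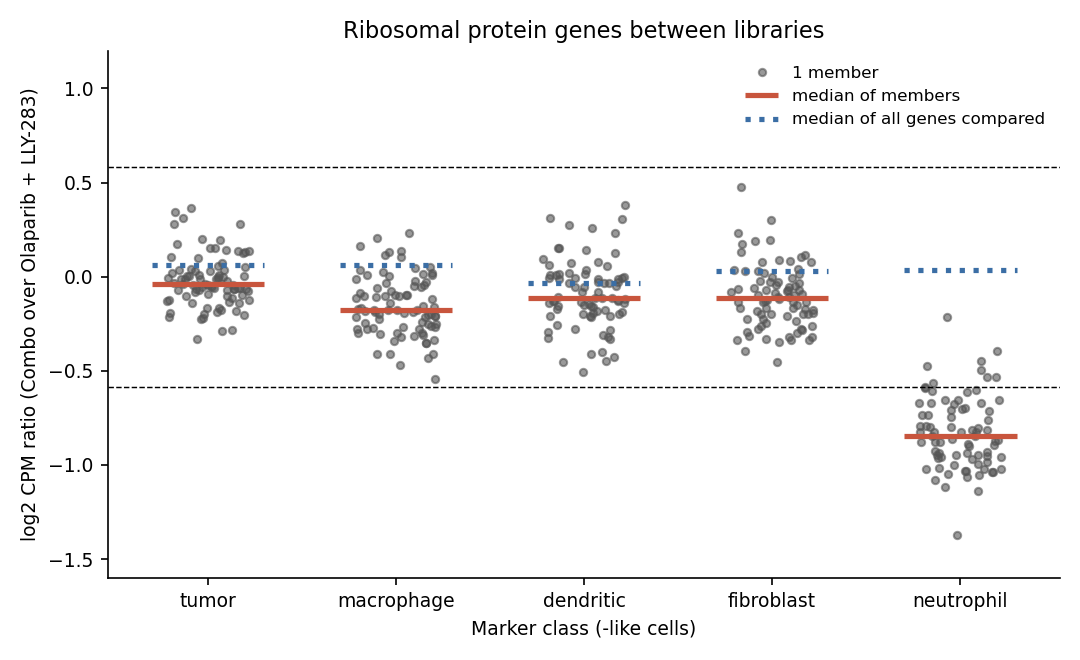
log2 ratio of CPM, Combo over Olaparib + LLY-283 (vertical axis), of each member in 5 marker classes. Each point is 1 gene, solid bars are medians of the members, dotted bars medians of all genes compared, and dashed lines mark 1.5-fold. In tumor-like cells points lie between -0.33 and 0.36, and in neutrophil-like cells between -1.37 and -0.22.

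Relative to all ribosomal protein UMIs, some members shifted the same way in every class compared. Of 80 members with enough UMIs in tumor-like, macrophage-like, neutrophil-like, dendritic-like and fibroblast-like cells, 22 were higher in the Combo library in all 5 and 12 lower in all 5. Rpl36al led with a mean log2 ratio of 0.45 and values from 0.36 to 0.62. Rpl35a had a mean of 0.38, Rpl27 of 0.35, Rpl27a of 0.32 and Rpl15 of 0.29. On the lower side stood Rpl22l1 with -0.18, Rps14 with -0.16, Rpl37 with -0.15 and Rps4x with -0.14. Rps10, singled out as a substrate of PRMT5 and not by its rank, was among the 22, with a mean of 0.13. In tumor-like cells Rps10 was at 580 CPM (575 to 584) and 634 CPM (630 to 639). Both libraries come from mice given LLY-283, so these values hold no contrast in PRMT5 inhibition. The last 300 bases of Rps10 share 63.1% of their 60-base words with other genes' transcripts. All 5 comparisons set the same 2 libraries side by side, and a property of a library would appear in each of them. The share of all genes that shift the same way in all 5 is not given. The counts of 22 and 12 therefore describe the members and show no trait particular to them. In osteoclast-like, T-like and myogenic-like cells and in cells over the mitochondrial limit, which were not used to choose them, the 5 leading genes were higher in 19 of 20 values and the 4 low genes named here were lower in 13 of 16. In tumor-like cells between 10000 and 30000 UMIs, Rpl27 was at 0.38 and Rpl36al at 0.24, and at 30000 UMIs or more at 0.47 and 0.38, so their shift was present at both depths. Among neutrophil-like cells between 1000 and 3000 UMIs, Rpl36al was at 0.67, on 9 UMIs in the Olaparib + LLY-283 library, and Rpl27 at 0.41, while Rpl22l1, at -0.08 under 1000 UMIs, was at 0.27.

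**Figure D4:**
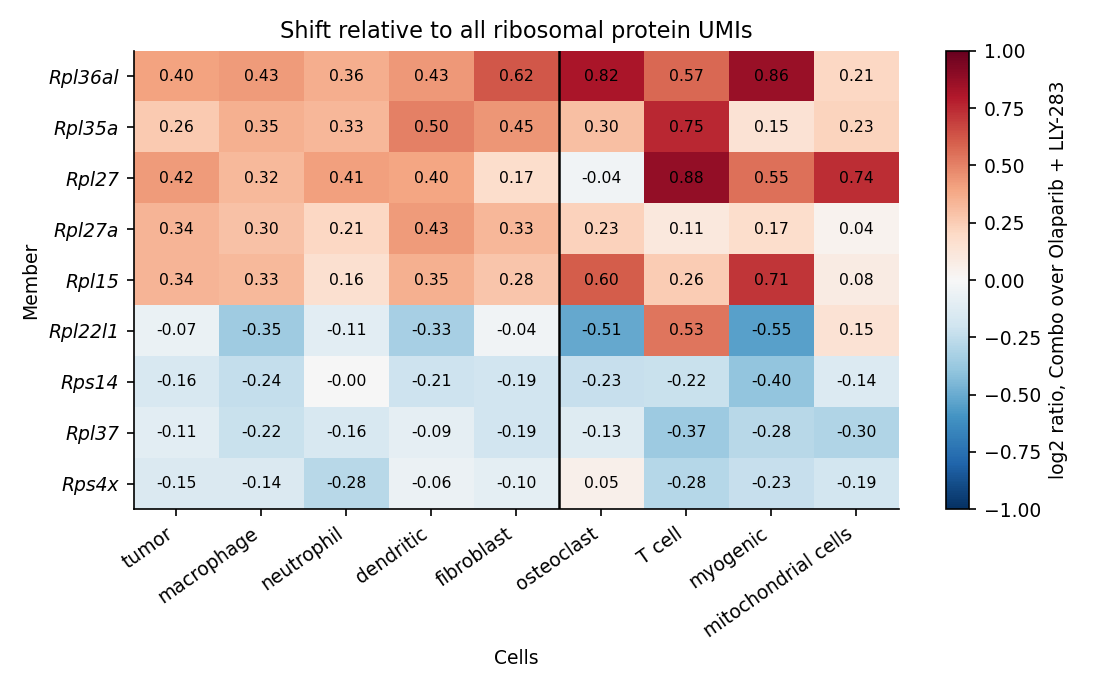
log2 ratio, Combo over Olaparib + LLY-283, per ribosomal protein UMI for the 5 members highest and 4 of those lowest in all of the 5 classes left of the line. The columns right of the line are cells not used to choose them, the last being cells with 20% or more mitochondrial UMIs. Rpl36al runs from 0.36 to 0.62 left of the line.

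The make-up of the ribosomal protein mRNAs differed little between classes. Each member's UMIs per 1000000 ribosomal protein UMIs in a class were set against the mean of the other classes, in 710 pairs of a member and 1 of 9 classes. The smallest of these classes were endothelial-like with 31 and 9 cells, T-like with 27 and 30, osteoclast-like with 55 and 24 and myogenic-like with 40 and 54. In 699 pairs the mean log2 ratio of both libraries lay within 0.5. All classes compared also held keratin list UMIs. Without the anti-PD-1 antibody, osteoclast-like cells had the fewest per 10000, 2.61, and myogenic-like cells 7.26, beside 10.49 in tumor-like cells. With it, endothelial-like cells had the fewest, 0.956, and dendritic-like cells 2.57, beside 8.95 in tumor-like cells. The part of tumor-cell RNA in the likeness of the classes was not tested. Only 1 pair was past 1.5-fold in both libraries: Rps27rt, lower in tumor-like cells with 159 and 144 UMIs on this scale and log2 ratios of -0.59 and -0.65, where 55.1% of all genes were called lower and 0.758% higher in that comparison. Of all genes, 8.98% were called higher and 7.14% lower in macrophage-like cells, 44.5% and 1.65% in neutrophil-like, 10.5% and 5.10% in dendritic-like, 24.8% and 4.66% in fibroblast-like and 15.9% and 8.40% in osteoclast-like cells. In the smaller classes it was 8.84% and 15.3% in T-like, 23.8% and 2.86% in endothelial-like and 23.6% and 6.18% in myogenic-like cells. The last 300 bases of Rps27rt share 88.0% of their 60-base words with other genes' transcripts, so its count is uncertain. The ratios also rest on few Rps27rt UMIs in the other classes. T-like cells had 2 and 7, myogenic-like cells 3 and 3 and endothelial-like cells 10 and 3. Macrophage-like cells had the most of the other classes, 120 and 200. Rpl22l1 was the member with the highest ratio in tumor-like cells, 0.42 and 0.63, with 7630 and 7284 UMIs on this scale. In neutrophil-like cells the highest was Rps9, at 0.27 and 0.81, with 15039 and 23556, where the libraries differed in depth as given above. In T-like cells Rps2, a small subunit protein, was lowest at -0.54 and -0.78, and Rps15a highest at 0.55 and 0.44, on 64 and 167 UMIs of Rps2.

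Paralogs and their parent genes differed in proportion between classes. Rpl22l1 made up 50.8% (50.6 to 51.0) of the UMIs of Rpl22l1 and Rpl22 and 49.6% (49.4 to 49.7) in tumor-like cells. Nearest were neutrophil-like cells with 46.9% (43.3 to 50.6) and 41.8% (39.8 to 43.9). The keratin list stood at 4.56 and 2.27 UMIs per 10000 in them, and its part in this was not tested. Fibroblast-like cells had 40.8% and 39.1%, endothelial-like cells 42.3% and 27.6% and myogenic-like cells 41.8% and 30.9%. The 27.6% (22.25 to 33.53) rests on 9 cells and 71 UMIs of Rpl22l1. The keratin list was at 5.19 and 0.956 UMIs per 10000 in endothelial-like and at 7.26 and 2.09 in myogenic-like cells. Its part in these percentages was not tested either. Macrophage-like cells had 39.4% and 32.3%, dendritic-like cells 32.9% and 28.5%, and T-like cells 23.1% (16.3 to 31.2) and 31.1% (26.7 to 35.9). Rpl22l1 shares 61.8% of the 60-base words of its last 300 bases with other genes. Rps27l, a paralog of Rps27 that p53 is known to induce, made up 20.6% and 22.2% of its pair in tumor-like cells and 14.9% and 14.8% in neutrophil-like cells. In T-like cells it was 11.9% (27 UMIs) and 5.39% (41 UMIs), where Rps27 had 200 and 719 UMIs. Tumor-like cells did not stand out for Rps27l. Osteoclast-like cells had 22.6% and 23.5%, dendritic-like cells 20.8% and 19.8% and macrophage-like cells 18.7% and 20.4%. The last 300 bases of Rps27 share 100% of their 60-base words with other genes, and those of Rps27l 18.7%. The count of Rps27, and with it these percentages, is therefore uncertain. Rpl36al, a retrogene copy of Rpl36a on chromosome 12, made up a higher percentage of its pair in the Combo library in each class shown, with 11.1% and 14.2% in tumor-like, 13.0% and 17.5% in macrophage-like and 12.8% and 17.2% in neutrophil-like cells. The intervals of the libraries overlapped in neutrophil-like and T-like cells. The last 300 bases of Rpl36al share 67.6% of their words with other genes, and those of Rpl36a 100%.

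**Figure D5:**
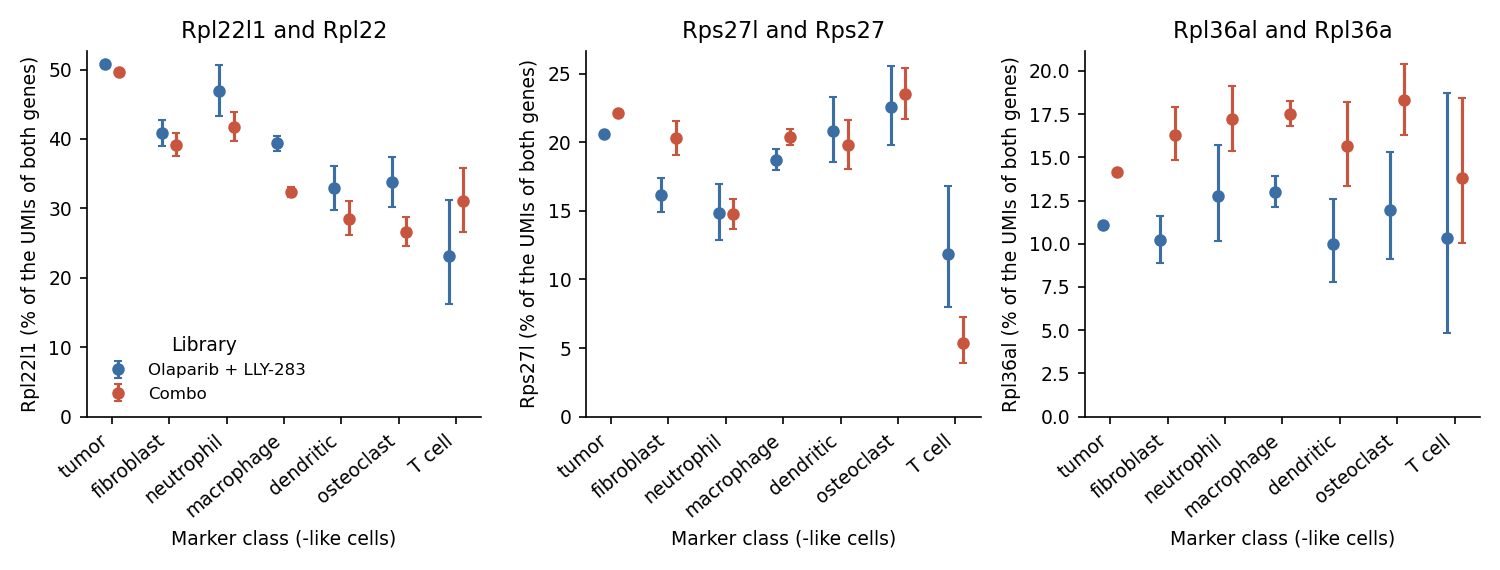
UMIs of a paralog as a percentage of the UMIs of the pair (vertical axes, each from 0) in 7 marker classes and both libraries, with exact 95% binomial intervals that cover counting error only. Rpl22l1 lies at 50.8% and 49.6% in tumor-like cells, above each of the other classes, and Rpl36al is higher in the Combo library in each class.

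The other members outside the canonical subunits were scarce. In tumor-like cells Rpl7l1, a nucleolar relative of Rpl7 with a role in ribosome assembly, had 116 and 119 CPM against 1158 and 1164 CPM of Rpl7. Rps19bp1, which binds Rps19 and is not a ribosomal protein, had 105 and 102 CPM, against 1545 and 1585 CPM of Rps19. Rpl37rt, annotated as a transcribed processed pseudogene, had 50.1 and 41.0 CPM, or 0.663% and 0.609% of the UMIs of the pair with Rpl37. Rpl6l, annotated as a processed pseudogene whose last 300 bases all match other genes, had 8.96 and 9.15 CPM beside 2322 and 2303 CPM of Rpl6. Rps3a2, another processed pseudogene, had 5.44 and 4.48 CPM beside 3013 and 2893 CPM of Rps3a1.

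Other genes of the translation machinery were compared from lists. Rack1 and Fau encode ribosomal proteins that the symbol rule leaves out. In tumor-like cells neither was called, with 1898 and 1863 CPM of Rack1, and in neutrophil-like cells Rack1 was lower, at -0.83, while Fau was at -0.30. Of 33 translation factors, all tested in tumor-like cells, 0 were called, and their median was -0.02; in neutrophil-like cells 17 of 32 were lower and 0 higher, with a median of -0.61, where 19.7% of all genes were lower. Eef1a1, the elongation factor that brings tRNA to the ribosome, went there from 2369 to 1527 CPM. Of 30 ribosome assembly factors 0 were called in tumor-like cells, 5 of 29 were lower in macrophage-like cells, where 6.54% of all genes were, and 7 of 11 in neutrophil-like cells. Among 80 mitochondrial ribosomal proteins with enough UMIs in tumor-like cells, 1 was called, Mrpl53, higher at 0.86, where 4.59% of all genes were higher, and in neutrophil-like cells 11 of 23 were lower. Of 7 regulators of these mRNAs, such as Mtor and Larp1, 0 were called in tumor-like cells. In macrophage-like cells 2 of 7 were lower, Myc at -0.94 and Mtor at -0.69, and 0 higher. The median of the 7 was above 0 in both classes, at 0.18 in tumor-like and 0.24 in macrophage-like cells. The keratin list was at 3.98 and 1.76 UMIs per 10000 in macrophage-like cells. The part of tumor-cell RNA in the macrophage-like values of these lists was not tested. Among 27 genes with enough UMIs that mark RNA quality, 5 mitochondrial tRNAs were lower in tumor-like cells and 0 genes higher. The median of the 27 was 0.10, and 2.25% of all genes were lower. The 5 were mt-Ts2 at -1.001, mt-Td at -0.91, mt-Tc at -0.89, mt-Tt at -0.85 and mt-Ta at -0.61. In neutrophil-like cells 5 of 11 of this list were lower, mt-Nd1 at -0.85, mt-Nd5 at -0.83, mt-Atp8 at -0.75, mt-Cytb at -0.74 and mt-Rnr1 at -0.59, and 1 higher, the nuclear RNA Neat1 at 0.65, beside the 72 members called lower. In macrophage-like cells 3 of 14 were higher and 0 lower, mt-Nd4 at 0.67, mt-Co3 at 0.64 and mt-Nd2 at 0.60, where 8.60% of all genes were higher. The part of RNA quality in the members' levels was not tested. The 9 other mRNAs with a terminal oligopyrimidine start had 0 calls in tumor-like cells and 6 of 9 lower in neutrophil-like cells, and the snoRNA host RNAs, such as Gas5, 0 of 7 and 3 of 3 lower. In macrophage-like cells 0 of these 9 mRNAs were called. There 3 of 7 snoRNA host RNAs were lower, with a median of -0.58, where 6.54% of all genes were lower. The neutrophil values again span cells of unequal depth in the libraries, and 19.7% of all genes were lower there.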

How the data were processed

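Single-cell 3′ libraries (10x Genomics) were made from 2 tumor pools. The authors deposited 1 matrix of UMI counts per library, without normalization. The matrix header names Cell Ranger 6.1.2, and the submitters' processing notes also list Seurat 4.1.0 and build mm10. All 55450 gene IDs were found in GENCODE M21. Columns of no sample were absent.

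Cells with under 20% mitochondrial UMIs were kept. A class was given where a marker list had at least 5 UMIs and passed its level per 10000 UMIs (200 for neutrophil and fibroblast, 50 for myogenic, 30 for macrophage, dendritic and osteoclast, 15 for monocyte and endothelial, 10 for T), and the next list reached under 0.5 of the first. These levels came after a look at the values, and the members and lists were chosen with earlier results of these data known. Cells with at least 5 keratin UMIs and every other list under 0.5 of its level were tumor-like. Doublets were treated only by leaving out mixed cells, since Scrublet (scanpy 1.11.5, 0.8% expected per 1000 cells) called 0 in both libraries. As an alternative chosen afterwards, the highest scores up to the expected rate were left out, 1864 and 252 cells.

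Shares have Clopper-Pearson, levels Poisson and differences Newcombe intervals, at 95%. They cover counting error only, and depth is the total of UMIs given. Scripts ran under Python 3.11.15 with pandas 2.3.3, scipy 1.17.1, numpy 2.4.6 and matplotlib 3.10.9. The comparison was tested on simulated data. Comparisons of genes between libraries needed 50 cells of a class per library over all depths. Depth steps, and genes compared within them, needed 10, and classes set against the others had no minimum.

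Named genes were the members off the canonical lists and the parents of these paralogs, the 5 highest and 5 lowest ratios in tumor-like, macrophage-like and neutrophil-like cells, members past 1.5-fold in a class in both libraries, those at the limit of 1000 UMIs, the 5 most abundant, and other list genes past 1.5-fold in tumor-like cells. Genes named outside this rule, such as Rps10, Rps15a and Rps2 and the list examples, were chosen after their values were seen. Alternatives changed the mitochondrial filter, the marker minimum and levels, the denominator, the depth range, the doublets and sums against medians. Some genes that meet the rule are not reported here.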

Additional observations from a re-analysis of the deposited data

Results flagged for a closer look

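Cells over the mitochondrial limit were left out of the comparisons and still held ribosomal protein UMIs: 11.56% of the UMIs of 86 cells without the anti-PD-1 antibody, and 10.73% of those of 1586 cells with it. Of their UMIs from non-mitochondrial genes, the shares were 18.2% and 19.5%. The symbols with -ps, which the rule leaves out, held 93695 UMIs (Olaparib + LLY-283) and 96937 UMIs (Combo), or 0.283% and 0.282% of the members' UMIs, over 300 symbols. Osteoclast-like cells were the 1 class whose share was higher in the Combo library, by 1.24 points, on 55 and 24 cells. The difference in direction from the 9 other classes was not tested.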

How the results depend on the processing

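No paired analysis was possible because each group is 1 library. Differences in share are in percentage points, Combo minus Olaparib + LLY-283. Of the values that answer a comparison, 80 stayed within the counting interval (differences in share) or 1.5 times (counts of genes), 51 lay outside these limits and 3 changed direction. In tumor-like cells (-0.937), the difference was -1.11 with at least 10 marker UMIs, -0.835 with 2, -0.608 as medians over cells, -0.911 without mitochondrial genes and -4.42 in cells between 3000 and 10000 UMIs. In macrophage-like cells (-2.14) it was -0.605 without the highest Scrublet scores, -0.871 as medians, -0.899 between 3000 and 10000 UMIs, -0.721 under 1000 and -2.45 with smaller marker levels. In neutrophil-like cells (-5.20) it was -5.03 without the highest Scrublet scores, -4.75 as medians, -5.35 without mitochondrial genes, -6.11 with smaller marker levels, -5.58 without marker genes, 0.331 under 1000 UMIs and -4.61 from 1000 to under 3000 UMIs. In dendritic-like cells (-1.51) it was -0.819 without the highest scores, -2.72 between 3000 and 10000 UMIs, -1.69 with 2 marker UMIs and -0.238 with smaller levels. In fibroblast-like cells (-1.51) it was -0.947 without the highest scores, 0.457 as medians, -0.215 under 1000 UMIs and -0.742 with smaller levels.

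In all cells under 1000 UMIs the difference of 1.68 was -0.275 with no mitochondrial filter, 3.35 as medians and 1.88 without mitochondrial genes. The same 3 settings gave -8.59, -9.55 and -9.00 from 1000 UMIs (-8.75) and -8.01, -8.60 and -7.80 from 3000 UMIs (-7.88). Medians and no mitochondrial genes gave -4.24 and -3.41 from 10000 UMIs (-3.49), and -1.76 and -1.83 from 30000 UMIs (-1.88).

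Between 3000 and 10000 UMIs, 1 member was higher (Rpl6l) and 2 lower (Rps27 and Rpl29) in tumor-like cells, where 22.4% and 10.6% of all genes were called, 1 lower in macrophage-like (Rpl22l1), against 8.68%, and 6 of 74 lower in dendritic-like cells (19 and 24 cells), against 16.4%. Under 1000 UMIs, 1 was higher (Rpl36) and 5 lower (among them Rpl30, Rpl35, Rpl39 and Rps27) of 58 in macrophage-like cells (108 and 12 cells), against 10.1% and 21.7% of all genes, and 2 higher and 0 lower in neutrophil-like cells, where Rps4x turned from -1.14 to 0.028. Between 1000 and 3000 UMIs, a range chosen after seeing the data, 3 of 79 were lower in macrophage-like cells (453 and 32 cells), against 19.4% of all genes, and 59 of 79 lower and 1 higher in neutrophil-like cells. Per ribosomal protein UMI, 1 was higher (Rps9) and 0 lower in neutrophil-like cells, and 1 higher (Rpl36al) in fibroblast-like cells, where 9.12% of all genes were higher. The 1 pair past 1.5-fold against other classes became 81 by CPM over all UMIs, 6 in the Olaparib + LLY-283 library alone and 11 in the Combo library alone. CPM over all UMIs does not remove a lower share of all members in a class. The shares of all genes called under these settings are not given. The cause of the changes was not tested. Alternatives at fixed depth gave no value where a library held under 10 cells of a class, and Scrublet's own threshold marked no cell.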
